A study of Mus musculus with 8 samples.

Results

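G1/S and DNA replication genes were followed in mouse embryonic stem cells (ESCs) that were made to express JUN and were treated with inhibitors of BAF bromodomains. The set was a named list of 34 genes, found by symbol among the 50600 rows of the deposited RNA-seq table, and all 34 were present. Of these, 33 had a mean value of at least 5 over the libraries and were tested, and E2f2 was listed with a mean of 3.5 and was not. The list follows the genes' known roles at the entry to S phase and at the replication fork.

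The cells were OG2 transgenic mouse ESCs of mixed background (129SVJ, C57B6 and CBA) at passage 12, grown without feeders in 2i/LIF medium, with a c-Jun TetOn construct, so that doxycycline switches on JUN. All 4 groups received 2 μg/ml doxycycline, the DMSO controls included, so no uninduced cells were compared here. To this were added, for 6 h by the labels, the solvent DMSO, PFI-3 (a BRG1 bromodomain inhibitor), BI-9564 (a BRD7/BRD9 bromodomain inhibitor) or both compounds (P+B). Each group had 2 replicate libraries. The labels do not state the compound doses, whether the line is 1 clone, or whether the replicates were separate cultures, so the p-values measure only the spread between these libraries.

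Cells that commit to division pass from G1 to S phase when cyclin-dependent kinases release E2F transcription factors from the retinoblastoma protein. E2F then turns on a shared set of genes, among them cyclin E, the MCM helicase, its loading factors, the replication clamp and enzymes that make deoxynucleotides. Mouse ESCs have a short G1 phase and spend much of their cycle in S phase, and they are known to express this set at high levels throughout.

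Because these genes are known for E2F control, their promoters were searched for sequence that they share. RefSeq promoters (250 bases before to 50 bases after the start, build GRCm38.p6) were given for 29 of the 34 genes. A gene was counted if any of its promoters held the word. An E2F word (TTTCCCGC, TTTCGCGC, TTTGCCGC or TTTGGCGC, on either strand) was held by 12 of 29 genes, or 41.4%, beside 5.3% of 7783 tested genes with a promoter and 2.6% of all 27025 genes with a promoter. The 12 genes were Mcm3, Mcm5, Mcm6, Mcm7, Cdc6, Cdt1, E2f2, Rfc3, Pola1, Lig1, Uhrf1 and Hells. The CCAAT word, which NF-Y reads, was held by 17 of 29 genes (58.6%) beside 44.3% of tested genes and 41.1% of all genes with a promoter. The AP-1 words TGACTCA and TGAGTCA, which JUN dimers read, were in the promoters of 0 of 29 genes, beside 4.1% of tested genes and 5.9% of all genes with a promoter. In a set of 29, a count of 0 is near these shares. Only these AP-1 words were searched, so other sites of JUN dimers were not counted. A word is a match of letters only, and the words of different motifs could overlap.

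The helicase genes Mcm5 and Mcm6 are shown first because they carry the same 12 bases in opposite directions, with overlapping E2F words on both strands. In the lines below, capitals mark E2F words and every sequence is written 5′ to 3′ along the gene's own strand.
Mcm5, chr8:75109344-75109379, plus strand: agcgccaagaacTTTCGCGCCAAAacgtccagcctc
Mcm6, chr1:128359792-128359827, minus strand: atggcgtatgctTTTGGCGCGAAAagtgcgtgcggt
Mcm6, chr1:128359733-128359764, minus strand: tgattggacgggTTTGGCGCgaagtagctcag
Pola1, chrX:93632274-93632305, minus strand: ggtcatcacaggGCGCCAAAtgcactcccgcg
Cdt1, chr8:122568035-122568064, plus strand: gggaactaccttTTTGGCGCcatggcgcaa
The 12-base stretch TTTCGCGCCAAA, read on either strand, was in the promoters of 4 of 27025 genes, and Mcm5 and Mcm6 were 2 of them. It began 153 bases before the RefSeq start in Mcm5 and, as its reverse complement, 110 bases before it in Mcm6. In Cdt1 the word lay after the start.

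The next 4 sequences belong to the genes whose unadjusted p-values in the comparisons with DMSO were lowest, and they are the 250 bases before the RefSeq start. Capitals mark CCAAT, and none of these stretches held an E2F word.
Tk1, chr11:117826015-117826264, minus strand: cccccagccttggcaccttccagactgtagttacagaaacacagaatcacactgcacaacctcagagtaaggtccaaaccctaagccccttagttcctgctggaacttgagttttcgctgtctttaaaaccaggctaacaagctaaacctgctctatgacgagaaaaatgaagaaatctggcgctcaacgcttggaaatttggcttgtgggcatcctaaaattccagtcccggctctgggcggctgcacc
Mcm10, chr2:5012792-5013041, minus strand: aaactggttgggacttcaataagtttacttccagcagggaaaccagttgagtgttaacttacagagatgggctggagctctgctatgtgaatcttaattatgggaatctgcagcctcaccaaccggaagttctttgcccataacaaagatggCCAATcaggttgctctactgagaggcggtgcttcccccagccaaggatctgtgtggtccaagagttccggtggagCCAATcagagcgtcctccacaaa
Prim1, chr10:128014965-128015214, plus strand: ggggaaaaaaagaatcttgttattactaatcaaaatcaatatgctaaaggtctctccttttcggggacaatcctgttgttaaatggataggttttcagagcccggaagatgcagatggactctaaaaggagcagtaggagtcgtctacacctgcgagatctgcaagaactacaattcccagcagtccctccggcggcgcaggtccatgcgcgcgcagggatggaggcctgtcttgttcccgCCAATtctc
Cdt1, chr8:122567765-122568014, plus strand: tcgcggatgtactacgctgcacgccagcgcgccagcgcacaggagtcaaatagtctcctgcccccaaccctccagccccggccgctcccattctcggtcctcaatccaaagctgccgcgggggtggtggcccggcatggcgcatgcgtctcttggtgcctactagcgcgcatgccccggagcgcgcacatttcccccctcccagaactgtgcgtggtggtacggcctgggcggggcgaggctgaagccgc
Mcm10 held CCAAT in 2 places and Prim1 in 1, while the stretches of Tk1 and Cdt1 held neither word. In the GENCODE M21 annotation Tk1 spans chr11:117815526-117826092 on the minus strand and overlaps Afmid and Gm20708 on the other strand. Cdt1 spans chr8:122568015-122573554 inside the longer model Gm20388 on the same strand. Cdc45 overlaps Ufd1 on the other strand, and Pcna and Tyms have annotated pseudogenes. Of the 34 genes, 15 overlap another annotated gene, and since the counting of strand is not given in the sources used here, their values may hold reads of the partner.

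The deposited values are TPM that the authors made whole numbers, a unit that corrects for transcript length, so levels can be set beside each other between genes. TPM keeps no depth, so the number of reads behind a value is unknown. Library sums lay between 991574 and 991897, and a value of 5 or more was reached by 10285 to 10451 genes in each. Jun itself lay between 1569 and 3011 in all 8 libraries and was higher in replicate 2 than in replicate 1 of every group. The 9 ESC markers were all expressed, with a summed value from 3538 to 5430, and of 10 fibroblast or feeder markers 6 were at 0 in every library, with a sum of 0 to 5. Smarca4, which encodes BRG1, lay between 119 and 147, Brd7 between 66 and 90, and Brd9 between 21 and 27.

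The 34 genes together made up 0.457% to 0.555% of each library. The summed value was 4955 and 5317 under DMSO, 4975 and 5508 under PFI-3, 4531 and 5093 under BI-9564 and 4688 and 5212 under P+B. The ranges of the 4 groups overlapped. Mean values over the 8 libraries were highest for Mcm5 (487.1), Pcna (440.1) and Mcm7 (324.8), and lowest for E2f2 (3.5), Ccne2 (17.9), Pola1 (29.4) and E2f1 (34.8). In bulk RNA, fewer cells in S phase and less RNA per cell cannot be told apart.

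**Figure D1:**
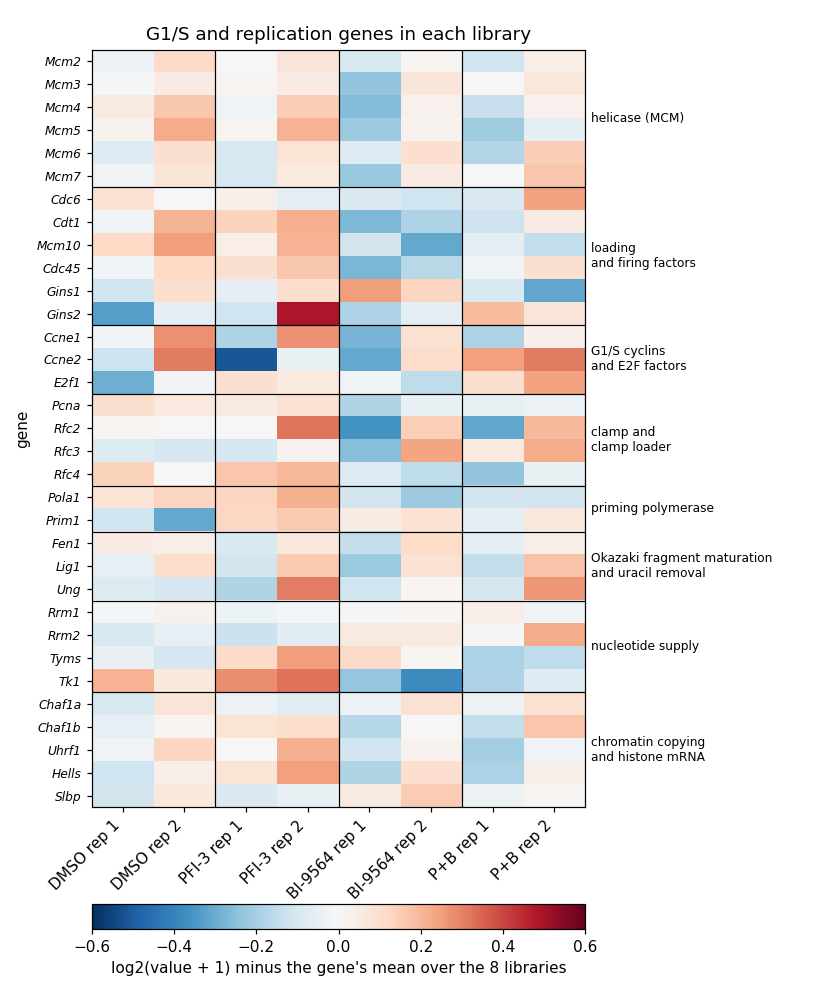
Heat map of the 33 tested genes (rows, grouped by role) in the 8 libraries (columns), coloured by log2(value + 1) minus the gene's mean over the libraries. Tk1 and Cdt1 are below their means in both BI-9564 libraries and above them in both PFI-3 libraries, and all 6 helicase rows are higher in replicate 2 than in replicate 1 of each treatment.

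The main question was whether bromodomain inhibition changed these genes in JUN-expressing cells. In the limma fit over all tested genes, 0 of the 33 genes passed the thresholds (an adjusted p under 0.05 and at least a 1.5-fold difference) in any comparison with DMSO. Among all 10222 tested genes, 4% were called with P+B, 0% with PFI-3 and 0.108% with BI-9564. With the replicate number as a block these shares were 7.02%, 0% and 1.53%, and still 0 genes of the set were called. For P+B the 95% confidence interval of the difference lay within 1.5-fold in both directions for 28 of 33 genes, for PFI-3 for 29 and for BI-9564 for 28. Differences from DMSO on the log2(value + 1) scale ran from −0.29 to 0.33 with P+B, from −0.37 to 0.38 with PFI-3 and from −0.45 to 0.28 with BI-9564. No gene of the set reached 1.5-fold (0.58 on the log2 scale) in any of these 3 comparisons.

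The median difference of the 33 genes was −0.02 with P+B, 0.01 with PFI-3 and −0.10 with BI-9564, while the median of all tested genes was 0.06, 0.02 and 0.02. With P+B 13 genes were higher than with DMSO and 20 lower; under PFI-3 17 were higher and 16 lower, and under BI-9564 12 were higher and 21 lower. Other scalings did not always move the set and all tested genes alike. Quantile normalization moved the P+B median of the set up and that of all tested genes down. After it 18 genes of the set were higher and 15 lower with P+B. With P+B the median of the set was 0.02, beside 0.04 for all tested genes, after quantile normalization and −0.12, beside −0.03, after median centring, so it lay below that of all genes under each scaling. With PFI-3 these values were 0.03 beside 0.01 and −0.03 beside −0.03, and with BI-9564 −0.04 beside 0.02 and −0.14 beside −0.02. Within same-numbered pairs of libraries, the median difference from DMSO was −0.10 and 0.00 under P+B, 0.02 and 0.03 under PFI-3, and −0.18 and −0.02 under BI-9564. The size of the BI-9564 difference thus depended on the pair.

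**Figure D2:**
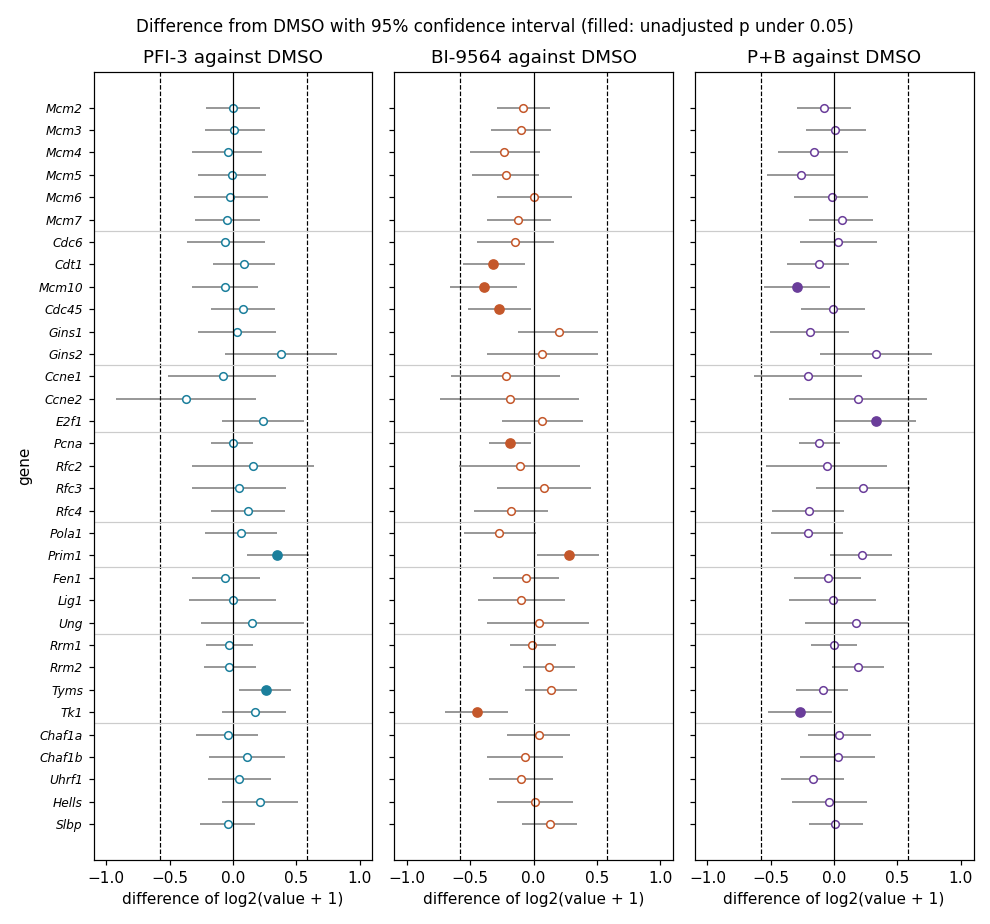
Difference from DMSO of log2(value + 1) for the 33 tested genes in PFI-3, BI-9564 and P+B, with 95% confidence intervals from the limma fit; dashed lines mark 1.5-fold (0.58) and filled points have an unadjusted p under 0.05. All points lie between the dashed lines, and the filled points number 2, 6 and 3 in the 3 panels.

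At an unadjusted p under 0.05, 1 gene was higher and 2 were lower with P+B than with DMSO, beside 12.7% higher and 9.87% lower among all tested genes. With PFI-3 2 genes were higher and 0 lower, beside 3.73% and 3.06%. With BI-9564 1 was higher and 5 were lower, beside 7.38% and 7.52%. With the replicate number as a block, the counts at this p were 8, 4 and 9 genes of 33 for P+B, PFI-3 and BI-9564, beside 29.2%, 11.2% and 21.3% of all tested genes.

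The libraries of the compared groups did not overlap for 5 genes that were higher and 8 that were lower with P+B, where all tested genes gave 28.6% and 18.9%. With PFI-3 7 genes were higher without overlap and 0 lower, beside 16.5% and 12.8%. With BI-9564 these were 4 higher and 10 lower, beside 22.9% and 18.3%. Mcm4, Mcm5, Mcm10, Pcna, Rfc4, Pola1 and Tk1 were lower without overlap with BI-9564 and also with P+B, and both comparisons used the same DMSO libraries. The share of all tested genes that were lower without overlap in both was not counted. This list therefore cannot be read as particular to the set. With 2 libraries against 2, the exact two-sided permutation test reaches no lower than p = 0.333 for any gene.

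The helicase subunits Mcm2 to Mcm7, which form the ring that unwinds DNA at the fork, were all within 1.5-fold of DMSO. With PFI-3 their differences from DMSO ran from −0.05 to 0.01, with BI-9564 from −0.23 to 0.00, and with P+B from −0.26 to 0.06, and none had an unadjusted p under 0.05. Mcm5, the most abundant of the whole set, had values of 492 and 566 under DMSO, 490 and 560 under PFI-3, 415 and 491 under BI-9564 and 417 and 466 under P+B. Both P+B libraries and both BI-9564 libraries were below both DMSO libraries, and in every group replicate 2 was the higher. With P+B the difference was −0.26 (SE 0.12, 95% CI −0.53 to 0.01, adjusted p = 0.236). With the replicate number as a block, the adjusted p was 0.0159 for P+B against DMSO and 0.0312 for P+B against PFI-3, still under 1.5-fold. At that p and at any fold, Mcm5 was the 1 gene of the set in each of these comparisons, beside 11.6% and 5.62% of all tested genes.

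The genes that load the helicase and start its firing held several of the lower values under BI-9564. Cdt1, which brings the MCM ring to origins, was listed at 180 and 211 under DMSO, 201 and 213 under PFI-3, 152 and 161 under BI-9564 and 168 and 190 under P+B. The BI-9564 values were below those of every other library, and the difference from DMSO was −0.32 (SE 0.11, 95% CI −0.56 to −0.07, adjusted p = 0.238). Mcm10, which helps the loaded helicase become active, was at 93 and 102 under DMSO, 88 and 99 under PFI-3, 79 and 69 under BI-9564 and 82 and 77 under P+B. The groups with BI-9564, alone or combined, lay below the other groups for Mcm10, at −0.39 (SE 0.11, adjusted p = 0.186) with BI-9564 and −0.29 (SE 0.11, adjusted p = 0.184) with P+B against DMSO. Cdc45, a subunit of the active helicase, was at 60 and 66 under DMSO, 65 and 68 under PFI-3, 50 and 54 under BI-9564 and 60 and 65 under P+B. Its BI-9564 values were again the lowest, at −0.27 from DMSO (SE 0.11, adjusted p = 0.307), and its P+B values overlapped those of DMSO.

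Gins1, a subunit of the GINS part of the active helicase, was 0.20 above DMSO with BI-9564, and its partner Gins2 was 0.38 above DMSO with PFI-3 (SE 0.19, adjusted p = 0.788), where 1 library at 101 stood above the other at 66. Cdc6, the loading factor that works with Cdt1, lay between 45 and 58 in all libraries and was lower without overlap with BI-9564, at −0.15 (SE 0.13, adjusted p = 0.655).

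The genes of the clamp and its loader were within 1.5-fold of DMSO. Pcna, the sliding clamp that holds polymerases on DNA, was at 469 and 458 under DMSO, 456 and 468 under PFI-3, 387 and 428 under BI-9564 and 426 and 429 under P+B. The difference was −0.19 with BI-9564 (SE 0.07, 95% CI −0.35 to −0.02, adjusted p = 0.295) and −0.12 with P+B (SE 0.07, adjusted p = 0.388). The clamp loader subunits Rfc2, Rfc3 and Rfc4 lay between 33 and 153 and had no unadjusted p under 0.05 against DMSO.

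Of the priming genes, Prim1, the primase subunit that makes the RNA primer, was at 65 and 57 under DMSO, 77 and 79 under PFI-3, 73 and 75 under BI-9564 and 68 and 74 under P+B. All 6 libraries with a compound were above both DMSO libraries. The difference was 0.35 with PFI-3 (SE 0.11, 95% CI 0.11 to 0.60, adjusted p = 0.594), 0.28 with BI-9564 (SE 0.11, adjusted p = 0.294) and 0.22 with P+B (SE 0.11, adjusted p = 0.279). Pola1, the catalytic subunit of the same enzyme complex, lay between 25 and 34. It was at 0.06 from DMSO with PFI-3 (SE 0.12), and with BI-9564 and P+B it was lower without overlap, at −0.27 (adjusted p = 0.361) and −0.21 (adjusted p = 0.353).

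Of the genes that supply nucleotides, Tk1 showed the widest spread between treatments. Tk1 encodes the thymidine kinase of the salvage route and is known to be made mainly in S phase. Its values were 82 and 74 under DMSO, 86 and 89 under PFI-3, 60 and 54 under BI-9564 and 62 and 67 under P+B. Both groups that received BI-9564 lay below DMSO, and PFI-3 lay above it, without overlap. Against DMSO the difference was −0.45 with BI-9564 (SE 0.11, 95% CI −0.70 to −0.20, adjusted p = 0.147), −0.27 with P+B (SE 0.11, adjusted p = 0.195) and 0.17 with PFI-3 (SE 0.11, adjusted p = 0.856). On that scale Tk1 was 1.36-fold lower with BI-9564.

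Tyms, which makes thymidylate by the other route, was at 127 and 122 under DMSO, 142 and 156 under PFI-3, 142 and 132 under BI-9564 and 115 and 118 under P+B. Each compound alone gave values above DMSO and the combination gave values below it, all without overlap. The difference from DMSO was 0.26 with PFI-3 (SE 0.09, 95% CI 0.05 to 0.46, adjusted p = 0.642), 0.14 with BI-9564 (adjusted p = 0.522) and −0.09 with P+B (adjusted p = 0.586). Rrm2, the regulated subunit of ribonucleotide reductase, was at 238 and 245 under DMSO, 232 and 242 under PFI-3, 263 and 263 under BI-9564 and 255 and 296 under P+B. Both groups with BI-9564 were above DMSO, by 0.12 (SE 0.09, adjusted p = 0.559) and 0.19 (SE 0.09, adjusted p = 0.261). Rrm1, the other subunit, lay between 129 and 135 in all 8 libraries.

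Of the factors that drive G1/S, E2f1, the founding activator E2F, was at 28 and 34 under DMSO, 37 and 36 under PFI-3, 34 and 31 under BI-9564 and 37 and 41 under P+B. The P+B values were above those of DMSO, by 0.33 (SE 0.14, 95% CI 0.01 to 0.65, adjusted p = 0.215). Ccne1, the cyclin E gene of higher level, was at 143 and 175 under DMSO, 127 and 175 under PFI-3, 119 and 154 under BI-9564 and 127 and 148 under P+B, and all groups overlapped DMSO. E2f2 was listed at 3 and 2 under DMSO, 3 and 3 under PFI-3, 5 and 3 under BI-9564 and 6 and 3 under P+B, too low for a difference to be read from whole numbers.

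Of the genes of Okazaki fragment joining and of chromatin copying, none had an unadjusted p under 0.05 against DMSO. Lig1, the ligase that seals Okazaki fragments, was at 260 and 289 under DMSO, 249 and 300 under PFI-3, 230 and 286 under BI-9564 and 243 and 303 under P+B. Its groups overlapped, with differences from DMSO of −0.00, −0.10 and −0.01 (SE 0.15 each) for PFI-3, BI-9564 and P+B. Uhrf1, which carries DNA methylation through replication, was at 284 and 316 under DMSO, 288 and 335 under PFI-3, 267 and 293 under BI-9564 and 250 and 284 under P+B. The differences of Uhrf1 were 0.05, −0.10 and −0.17 (SE 0.11 each). Fen1 and Ung, of flap cutting and uracil removal, and Chaf1a, Chaf1b, Hells and Slbp, of histone deposition, chromatin remodelling and histone mRNA processing, had differences from DMSO within 1.5-fold.

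**Figure D3:**
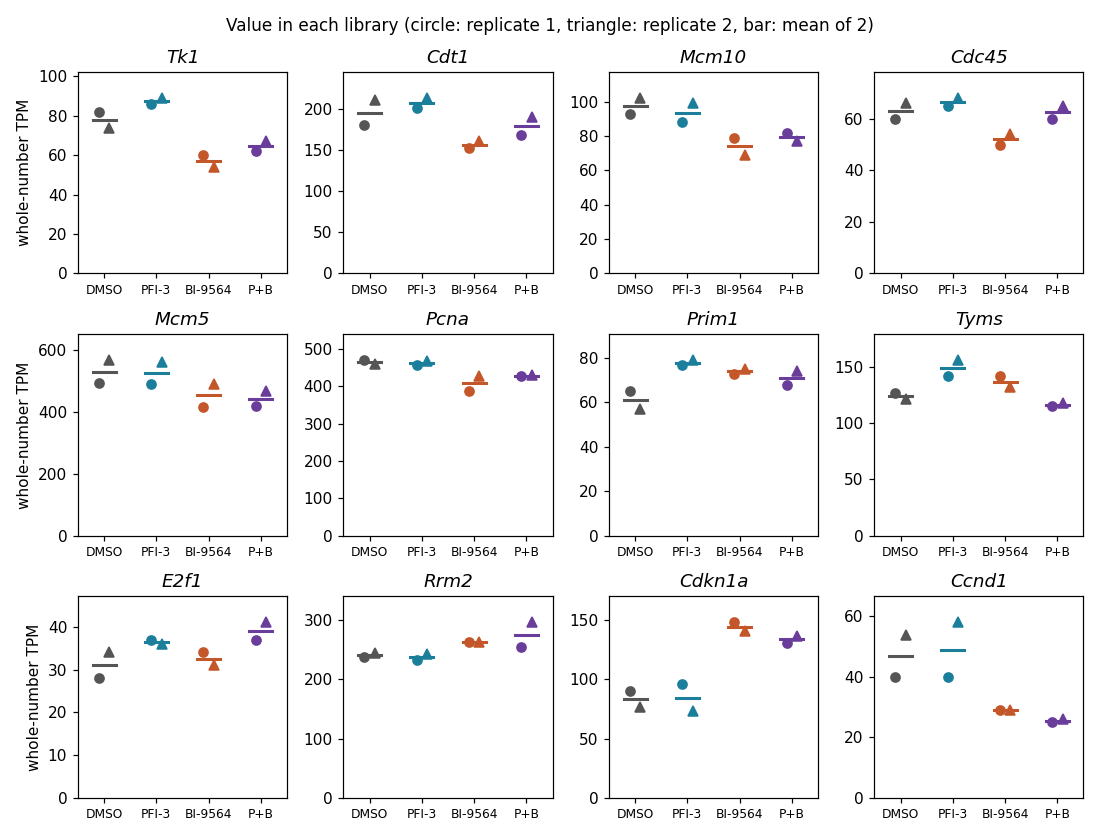
Values (whole-number TPM, linear axes from 0) of 10 genes of the set and of Cdkn1a and Ccnd1 in each library, by treatment; circles are replicate 1, triangles replicate 2, bars the mean of 2. Tk1, Cdt1 and Cdc45 have their lowest means with BI-9564 and Prim1 with DMSO, and the 4 libraries that received BI-9564 are above the other 4 for Cdkn1a.

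The compounds were also compared with each other. BI-9564 against PFI-3 gave the lowest median of the set among the 6 comparisons of groups, with 8 genes higher, 25 lower and a median of −0.12, beside 0.00 over all tested genes. Within same-numbered pairs the median was −0.12 in both. The libraries did not overlap for 3 genes that were higher and 11 that were lower with BI-9564, beside 20.5% and 19.9% of all tested genes. At an unadjusted p under 0.05, 7 genes were lower and 0 were higher. Of all 10222 tested genes, 1448 had such a p in either direction, and 775 of these (7.58% of all tested genes) were lower. The 7 genes of the set were Tk1, Cdt1, Cdc45, Mcm10, Pola1, Rfc4 and Pcna. None was called in the main fit, where 0.108% of all tested genes were.

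Tk1 had the largest difference between the compounds, −0.61 (SE 0.11, 95% CI −0.86 to −0.36), which is 1.53-fold lower with BI-9564. Its adjusted p was 0.0828 without a block and 0.0302 with the replicate number as a block, where Tk1 was the 1 gene of the set past both thresholds and 1.48% of all tested genes were called. Cdt1 was at −0.40 (SE 0.11, 95% CI −0.64 to −0.16), with an adjusted p of 0.179 without a block and 0.0329 with it, under the fold threshold. At an adjusted p under 0.05 and any fold, the block fit gave Tk1 and Cdt1, beside 2.51% of all tested genes. For 24 of the 33 genes the interval of the difference between the compounds lay within 1.5-fold.

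P+B was compared with each compound in turn. The labels give no doses, so the second compound and a changed dose of the first cannot be told apart here. Against PFI-3, 0 genes were called (1.31% of all tested genes), 11 were higher and 22 lower, and the median was −0.08. Here 2 genes were higher (8.46% of all) and 3 lower (8.09%) at an unadjusted p under 0.05, namely Ccne2 and Rrm2, and Tk1, Tyms and Rfc4. Tk1 was −0.44 from PFI-3 (SE 0.11, adjusted p = 0.106) and Tyms −0.35 (SE 0.09, adjusted p = 0.106). Against BI-9564, 0 genes were called (0.196% of all), 23 were higher and 10 lower, and the median was 0.06. Cdc45 was higher (4.06% of all at an unadjusted p under 0.05) by 0.26 (SE 0.11, adjusted p = 0.605), and Gins1 and Tyms were lower (3.91%), at −0.39 and −0.23.

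Whether the combination gave other values than the single compounds added together was tested with an interaction term. The term can be read so only if each compound had the same dose alone and combined, which the labels do not state. For its colony assays the paper gives a lower dose of each compound in the combination than alone. The term called 0 genes of the set and 0% of all tested genes. The term was −0.49 for Tyms (SE 0.13, 95% CI −0.78 to −0.19, unadjusted p = 0.00498, adjusted p = 1) and −0.41 for Prim1 (SE 0.15, unadjusted p = 0.0258, adjusted p = 1), the 2 genes of the set at an unadjusted p under 0.05, both lower, beside 1.77% of all tested genes. The largest term had the other sign, 0.75 for Ccne2 (SE 0.34, 95% CI −0.03 to 1.52, unadjusted p = 0.0568, adjusted p = 1), the gene of the set with a term past 1.5-fold. With the block 2 genes were higher and 3 lower at an unadjusted p under 0.05, Ccne2 among them (unadjusted p = 0.0135, adjusted p = 0.818), beside 5.75% of all tested genes in either direction. For Tyms and Prim1, each compound alone lay above DMSO, and the mean of the combination lay below that of either compound.

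**Figure D4:**
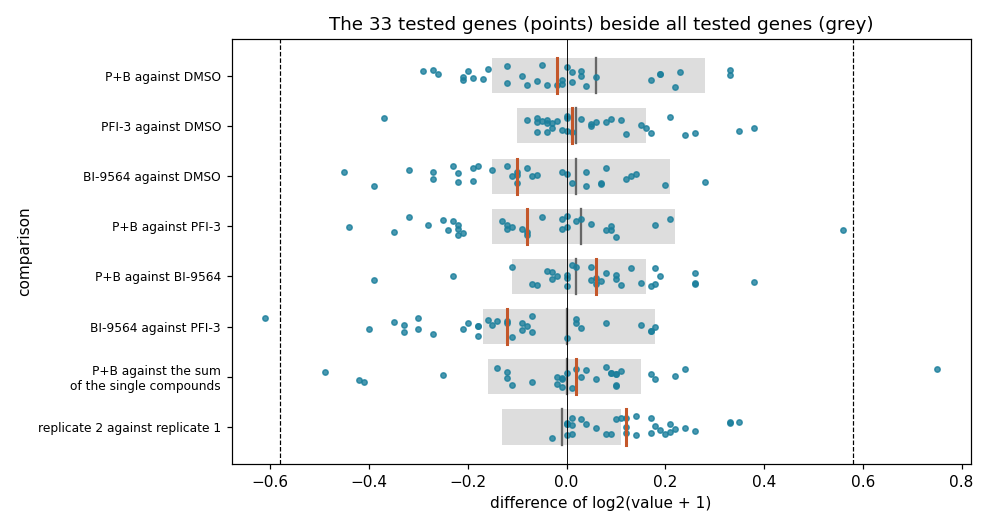
Differences of log2(value + 1) of the 33 tested genes (points, red bar their median) beside the range from the 25th to the 75th percentile of all tested genes (grey, dark bar the median) for the 7 comparisons and for replicate 2 against replicate 1; dashed lines mark 1.5-fold. The red bar lies furthest below 0 for BI-9564 against PFI-3 (−0.12) and furthest above it for the replicates (0.12).

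The genes of the set differed between the 2 replicates of a group in a common direction. In a fit with treatment and replicate number, 32 of 33 genes were higher in replicate 2, with a median of 0.12, while the median over all tested genes was −0.01. Some of these differences, as for Mcm10, Rfc4 and Prim1, were 0.00 at 2 decimals. Within DMSO alone 23 genes were higher in replicate 2 and 10 lower, and within PFI-3 30 and 3. Replicate 2 was the higher in all 4 groups for 15 of 33 genes, beside 11.1% of all tested genes, and among these were all 6 helicase subunits. The 15 genes also held Cdt1, Cdc45, Ccne1, Ccne2, Lig1, Chaf1b, Uhrf1, Hells and Slbp. At an unadjusted p under 0.05, 13 genes were higher in replicate 2, beside 8.84% of all tested genes. None was called (1.32% of all tested genes), and 3 had an adjusted p under 0.05 at any fold, beside 3.77%. These were Ccne1 (0.33, SE 0.06, adjusted p = 0.0209), Lig1 (0.26, SE 0.04, adjusted p = 0.0234) and Mcm5 (0.20, SE 0.03, adjusted p = 0.0234).

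Tk1 was the gene that lay lower in replicate 2, at −0.03 (SE 0.07). Among the members with an E2F word in a promoter, 11 of 11 tested were higher in replicate 2, with a median of 0.17. Of the 17 without such a word, all but Tk1 were also higher in the fit, with a median of 0.08. At 2 decimals 12 of the 17 were above 0, and the others except Tk1 were at 0.00. The direction therefore hardly differed between the 2 groups of genes. The 5 tested genes with no promoter given were in neither group: Ccne2 (0.35), Rfc2 (0.33), Gins2 (0.22), Mcm4 (0.18) and Gins1 (0.01). The same split was not made for all tested genes. In the treatment comparisons the medians of the genes with and without a word were −0.02 and −0.01 for P+B against DMSO, 0.01 and 0.00 for PFI-3 against DMSO, −0.10 and −0.06 for BI-9564 against DMSO, −0.11 and −0.12 for BI-9564 against PFI-3, −0.01 and −0.08 for P+B against PFI-3, and 0.08 and 0.02 for P+B against BI-9564. Jun also differed in this direction, with 1970 in replicate 1 and 2877 in replicate 2 of DMSO, 1570 and 2227 of PFI-3, 2071 and 3011 of BI-9564, and 1569 and 2159 of P+B. The summed ESC markers differed the other way, with 5195 and 4000, 5430 and 4407, 4590 and 3538, and 4669 and 3692 in the same order. The part of either in the replicate difference was not tested.

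**Figure D5:**
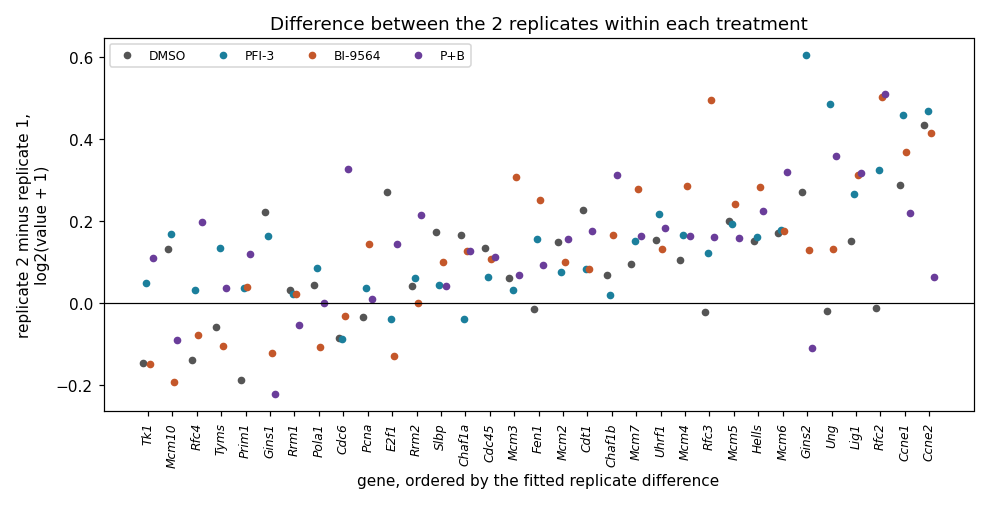
Replicate 2 minus replicate 1 in log2(value + 1) for each of the 33 tested genes (x axis, ordered by the fitted difference), 1 point per treatment. Points lie mostly above 0, from Tk1 at the left, which is the lowest at −0.03 in the fit, to Ccne2 at the right at 0.35.

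Other genes of the same pathway were followed as lists. Genes were named from a list because they were called against DMSO or had its lowest unadjusted p-values with P+B. The named genes therefore do not stand for their list. Among 29 tested G1/S regulators outside the set, 10 were higher and 19 lower with BI-9564 than with DMSO, with a median of −0.09. With P+B 15 were higher and 14 lower, with a median of 0.03, and 1 was called. This was Cdkn1a, the gene of the CDK inhibitor p21, at 90 and 77 under DMSO, 96 and 73 under PFI-3, 148 and 141 under BI-9564 and 131 and 137 under P+B. All 4 libraries with BI-9564, alone or combined, were above the 4 without it. Cdkn1a rose with P+B by 0.68 (SE 0.14, 95% CI 0.36 to 1.00, adjusted p = 0.0348), and it was no longer called when any 1 library of DMSO, BI-9564 or P+B was left out (adjusted p 0.0712 to 0.183). With BI-9564 the difference was 0.79 (SE 0.14, adjusted p = 0.0799, and 0.0251 with the replicate block, where it was called). With PFI-3 it was 0.01 (SE 0.14, 95% CI −0.31 to 0.33).

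Ccnd1, which encodes cyclin D1, was at 40 and 54 under DMSO, 40 and 58 under PFI-3, 29 and 29 under BI-9564 and 25 and 26 under P+B. Its difference was −0.84 with P+B (SE 0.20, 95% CI −1.30 to −0.38, adjusted p = 0.0539, and 0.0157 with the replicate block, where it was called). Cdk2, the kinase that cyclin E activates, was −0.39 with P+B (SE 0.11, adjusted p = 0.0856). Among 16 other genes of origin licensing and firing, 8 were higher and 8 lower with P+B, with 0 called and a median of 0.01. With BI-9564 6 of them were higher and 10 lower, with a median of −0.10, as in the set itself. Gmnn, whose protein geminin holds back CDT1, was at 114 and 108 under DMSO, 104 and 118 under PFI-3, 82 and 83 under BI-9564 and 82 and 87 under P+B, a difference of −0.39 with P+B (SE 0.10, adjusted p = 0.0648).

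Among 26 other replication fork genes 13 were higher and 13 lower with P+B, with 0 called and a median of 0.01. With BI-9564 15 of them were higher and 11 lower, also with a median of 0.01. Chtf18, of an alternative clamp loader, was at 95 and 91 under DMSO, 91 and 89 under PFI-3, 64 and 63 under BI-9564 and 71 and 70 under P+B. Its difference with P+B was −0.39 (SE 0.09, adjusted p = 0.0492), under the fold threshold. Pold2, a subunit of DNA polymerase delta, went the other way, at 0.40 (SE 0.11, adjusted p = 0.0806). Of 14 other nucleotide synthesis genes 5 were higher and 9 lower with P+B, and of 9 other chromatin copying genes 3 were higher and 6 lower, with 0 called in either. Their medians were −0.06 and −0.11. With BI-9564 6 nucleotide genes were higher and 8 lower (median −0.13), and 3 chromatin copying genes were higher and 6 lower (median −0.05).

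For setting beside the S phase genes, 25 genes of G2 and mitosis were listed, of which 12 were higher and 13 lower with P+B, with 0 called and a median of −0.02. With BI-9564 15 were higher and 10 lower, with a median of 0.02. Mki67, the proliferation marker Ki-67, was at 73 and 77 under DMSO, 74 and 76 under PFI-3, 99 and 101 under BI-9564 and 94 and 96 under P+B. The 4 libraries with BI-9564 were above the 4 without it, and the difference was 0.34 with P+B (SE 0.09, adjusted p = 0.074) and 0.41 with BI-9564 (SE 0.09, adjusted p = 0.13).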

How the data were processed

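RNA-seq libraries were made from poly(A) RNA with a VAHTS mRNA-seq kit. The submitters' processing notes name bcl2fastq, Bowtie2 2.2.5, RSEM 1.3.0 and mm10, with no role or order, and the annotation and strand setting are not given in the sources used here. The authors deposited 1 table of TPM values that they had turned into whole numbers (100% were whole), treated here as a score. Depth is unknown, so no count model was used.

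After log2(value + 1), linear models were fitted with limma 3.58.1 (R 4.3.3; eBayes with a trend) to all 8 libraries, for 10222 genes whose mean reached 5. P-values were two-sided and adjusted by Benjamini-Hochberg over all tested genes within each of 7 comparisons. Calls needed an adjusted p under 0.05 and at least 1.5-fold. The fit was tested on data simulated with independent noise for each gene and library and no replicate difference. That test therefore does not cover the replicate difference that the genes of the set share.

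Replicate differences correlated weakly across all tested genes for all 6 pairs of groups (Pearson's r 0.143 to 0.236). Genes are not independent replicates. Over the set alone r ran from −0.197 for DMSO with P+B to 0.449 for BI-9564 with P+B, and was 0.0529 for PFI-3 with P+B. The numbers, which come from the sample titles, were taken to pair the samples. The same model with the replicate number as a blocking term was therefore run as well. The labels give 6 h of treatment, while the legend of the study's heat map gives a longer JUN induction. Promoters came from RefSeq and gene positions from GENCODE M21 (GRCm38).

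All 34 genes may be named; the value in every library is given for those called in any fit, those with an unadjusted p under 0.05 against DMSO and the most abundant of each role. The genes and lists were chosen with earlier results of these data known.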

Additional observations from a re-analysis of the deposited data

How the results depend on the processing

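Results were recomputed with the replicate block, other pseudocounts (0.5, 5), minimum means (1, 20, none), quantile normalization, median centring, no trend, only the groups compared, other thresholds, and without each library. The count of called genes of the set stayed at 0 in all comparisons under these alternatives, except for Tk1 with the replicate block in BI-9564 against PFI-3 (1 gene). For replicate 2 against replicate 1, 3 genes passed with no fold threshold; this fit and its alternatives were added after the data were seen. Of 125 alternative medians of the set 4 moved by more than the spread between replicates (SD 0.0981, which includes the shared replicate difference), all on leaving out a library. This SD is close in size to the BI-9564 median of −0.10, so the count cannot show that the medians are stable. The P+B median changed from −0.02 to 0.02 with quantile normalization without passing it. Without a library in turn, the median ranged from −0.12 to 0.05 for P+B against DMSO, from −0.17 to 0.02 for BI-9564 against DMSO and from −0.04 to 0.14 for P+B against BI-9564. It was 0.02 without BI-9564 replicate 1 and −0.12 without P+B replicate 2 in the comparisons with DMSO. Of 630 alternative values of 11 single genes, 6 came to pass the thresholds and 10, all of Cdkn1a with P+B, no longer passed them (adjusted p 0.0529 to 0.183). The block changed no other call of the set. Over all tested genes it raised the calls from 409 to 718 for P+B and from 11 to 156 for BI-9564 against DMSO. Whole-number TPM and unknown depth limit what can be said of low genes such as E2f2.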
